A study of Mus musculus with 8 samples.

Results

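Granins and their granule partners are a group of 10 mouse genes, Chga, Chgb, Scg2, Scg3, Vgf, Ptprn, Ptprn2, Resp18, Pcsk1 and Pcsk2. They were picked by gene symbol with the differences between these libraries already known, and all 10 had a row among the 24155 genes of the count table. The cells were primary oligodendrocyte progenitors, the dividing glia that give rise to myelinating cells, immunopanned from male and female pups at postnatal day 7 and kept dividing with bFGF (20 ng/mL) plus PDGF-AA (10 ng/mL). Every culture, control cultures included, was Ehmt1fl/fl;Ehmt2fl/fl, so that Cre can delete a segment of either gene. The cKO group received the adenovirus Ad-RFP-iCre, which expresses red fluorescent protein and Cre recombinase, in 4 libraries. The control group received Ad-RFP, the fluorescent protein alone, in 4 libraries. Both viruses were applied for 6 hours at a multiplicity of infection of 10, and RNA was collected 72 hours after infection. Replicate numbers 1, 3, 4 and 6 name batches that hold 1 cKO and 1 control library each. In the labels, batch 3 carries a further index after its number, which they do not explain. The labels do not say whether batches came from separate animals, so the spread between them may be partly technical, and the Cre acts in whichever cells the virus entered.

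Dense-core granules are the storage organelles of regulated secretion in neurons and endocrine cells. Granins are acidic cargo proteins that aggregate in the Golgi network and help to form the granule, proprotein convertases cut the cargo into peptides, and transmembrane proteins of the granule link it to the cytoskeleton and to recycling. Several granin genes are well known to respond to cyclic AMP through a promoter element called the CRE. EHMT1 and EHMT2, also called GLP and G9a, are partner histone methyltransferases that act on lysine 9 of histone H3, and EHMT2 is a known cofactor of REST, the repressor that keeps neuronal genes low in other cells.

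Levels are CPM, counts scaled to library size after TMM normalisation. A change is a fitted log2 fold change of cKO over control ± SE from edgeR with batch as a block, and the words rose and fell are kept for genes that passed an adjusted p of 0.05 there. Totals ran from 43542742 to 65374488 counts per library. Ehmt1 was at 41.5 ± 3.98 CPM in cKO and 95.5 ± 5.58 CPM in control libraries, and Ehmt2 at 58.4 ± 5.86 CPM in cKO and 177 ± 17.1 CPM in control libraries (SD, n = 4). Both were lower in 4 of 4 batches, and transcripts that keep the exons not deleted are still counted. The 15 progenitor markers included Pdgfra and Olig2. They summed to between 9327 and 13842 CPM in cKO and between 10069 and 15214 CPM in control libraries. The sum was lower in cKO in 4 of 4 batches, while single markers were mixed. Of the 15, 2 rose (1 without replicate 3), 3 fell and 10 did not pass, with a median change of -0.03. Neuron markers summed to between 1532 and 2110 CPM in cKO and between 1406 and 2023 CPM in control libraries and were higher in cKO in 4 of 4 batches, and 8 of 18 rose with none falling (1 lower at an unadjusted p under 0.05 in edgeR, 0 in DESeq2 and limma-voom). Snap25, a neuronal release protein, had 19.9 ± 1.75 CPM in cKO and 7.01 ± 1.66 CPM in control libraries (SD, n = 4). Of that list, Slc32a1 averaged under 0.1 CPM, Slc17a7 and Gad2 were below the filter, and Slc17a6 and Th had no row in the count table. Mature oligodendrocyte markers summed to between 495 and 3338 CPM in cKO and between 382 and 2163 CPM in control libraries, higher in cKO in 4 of 4 batches, and 10 of 14 rose. Of neuroendocrine markers 3 of 15 were tested, Insm1, Calca and Pomc, and 0 passed in any of the 3 tools. The sum over that list was lower in cKO in 4 of 4 batches. Most of it was Insm1, with a mean of 6.10 CPM in cKO and 6.83 CPM in control libraries. Calca and Pomc were each higher in cKO in 4 of 4 batches. Astrocyte markers summed to between 1167 and 2826 CPM in cKO and between 1257 and 3076 CPM in control libraries, lower in cKO in 4 of 4 batches. Of 11 astrocyte markers tested, 2 rose and 4 fell, with a median change of 0.05. Of microglia markers 1 of 2 tested rose, and of endothelial, pericyte and meningeal markers 2 of 7 rose. In DESeq2 the rises in both of these lists numbered 0. The microglia rise was also lost without replicate 1, 3 or 4, and the endothelial list had 0 rises without replicate 1 or 6 and 1 without replicate 3 or 4. Mitochondrial genes took from 2.999% to 3.63% of counts in cKO and from 2.42% to 3.24% in control libraries, higher in cKO in 4 of 4 batches. The ribosomal RNA gene CT010467.1 took from 6.61% to 9.13% of counts in cKO and from 7.91% to 10.1% in control libraries, lower in cKO in 4 of 4 batches. The part of these cell types, of mitochondrial RNA and of CT010467.1 in the granule-gene levels was not tested.

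The level of every one of the 10 genes was higher in the cKO library than in the control library in 4 of 4 batches, as were 19.5% of all 18102 genes tested. In edgeR's quasi-likelihood fit with the batch number as a block, 8 of the 10 passed a Benjamini-Hochberg adjusted p of 0.05, each in the upward direction, and 0 passed downward. Of the 8, Pcsk1 was kept among the genes tested with the help of the cKO group. Of all genes tested, 10.0% passed upward and 20.5% in either direction. The genes had been listed with this contrast known, so their counts and sizes are a description, and nothing is read from them about the group. All 10 are annotated as protein-coding. On mm10, the granin genes are Chga (chr12:102554969-102565028, plus strand), Chgb (chr2:132781278-132795079, plus), Scg2 (chr1:79434669-79440120, minus), Scg3 (chr9:75643189-75684056, minus) and Vgf (chr5:137026392-137033351, plus). Ptprn2 is at chr12:116485720-117276849, Pcsk1 at chr13:75089826-75134861 and Pcsk2 at chr2:143546156-143816285, all on the plus strand. The median change of the 10 was 1.14, against -0.01 over all genes tested. Resp18 had the largest change at 2.21 ± 0.27 and Scg3 the smallest at 0.21 ± 0.06. With group alone in the model, 0 of the 10 passed in edgeR and 5 had an unadjusted p under 0.05, where 0.0166% and 4.93% of all genes did. In bulk RNA, more cells of a type and more RNA per cell cannot be told apart.

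Promoter sequence was examined because it played no part in choosing the genes, although the CRE of several granin genes was known beforehand. RefSeq promoters (GRCm38.p6, 250 bases before to 50 after a start site) were found for 9 of the 10 genes, Vgf being the one without an entry. Those 9 genes had 10 promoters. The counts below are of genes and the shares are of single promoters, so the 2 are not in the same unit. The full CRE, TGACGTCA, which reads the same on both strands, was in the promoters of 3 genes, Chgb, Scg2 and Pcsk1, and in 1.79% of all 32851 promoters. Its core, TGACG, searched on both strands and contained in the full site, was in 7 genes, those 3 with Chga, Scg3, Ptprn and Pcsk2, against 20.8% of all promoters. To show how alike the matches are, 30 bases are given around each full site, the core of Chga and the nearer core of Ptprn. Chga and Ptprn were picked by their levels here, as a granin with separate groups and the membrane gene with the more even rise. The cores of Scg3 and Pcsk2, the farther core of Ptprn and a separate core of Pcsk1 are not shown. Sequences run 5′ to 3′ along the gene's own strand, with the motif in capitals.
Chgb: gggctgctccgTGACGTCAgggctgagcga
Scg2: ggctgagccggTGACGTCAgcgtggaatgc
Pcsk1: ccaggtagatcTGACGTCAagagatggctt
Chga: ggggcggtcctaTGACGtaatttcctgggt
Ptprn: gggtggagatgtCGTCAttgcacgcctgca
The full sites began 72, 68 and 78 bases before the start in Chgb (chr2:132781559-132781588, plus strand), Scg2 (chr1:79440076-79440105, minus strand) and Pcsk1 (chr13:75089768-75089797, plus strand). The cores of Chga (chr12:102554885-102554914, plus strand) and Ptprn (chr1:75264271-75264300, minus strand, motif on the opposite strand) began 44 and 80 bases before it. GENCODE M21 annotates an exon of the same gene over the Chgb and Scg2 windows and none over the other 3. Of those 3, the Ptprn window lies inside the annotated span of its gene, and the Chga and Pcsk1 windows lie before theirs. These matches describe letters in a window, and binding was not measured.

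Among the granins, Chga, which encodes chromogranin A, had 18.8, 22.2, 25.8 and 27.4 CPM in cKO batches 1, 3, 4 and 6, against 6.69, 12.2, 13.1 and 17.2 CPM in the control libraries of the same batches. The lowest cKO library lay above the highest control library, so the groups did not overlap. The fitted change of Chga was 0.98 ± 0.12, and it rose. Chgb, encoding chromogranin B, had 9.57, 7.48, 24.7 and 26.4 CPM in cKO libraries, against 2.51, 2.10, 16.6 and 17.4 CPM in controls. Its groups overlapped, since controls of batches 4 and 6 stood above cKO libraries of batches 1 and 3. The within-batch log2 difference of Chgb was 1.92 and 1.82 in batches 1 and 3, and 0.58 and 0.60 in batches 4 and 6. The fitted change of Chgb, 1.05 ± 0.30, did not pass in edgeR and did in DESeq2.

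Scg2, whose product secretogranin II is the precursor of the peptide secretoneurin, rose by 1.85 ± 0.19. It had 16.5, 3.73, 20.1 and 10.9 CPM in cKO batches 1, 3, 4 and 6, against 4.74, 0.416, 7.15 and 2.95 CPM in controls. Batch 3 was lowest in both groups and had the widest difference, 3.06 on the log2 scale, and the groups overlapped. Vgf, a neurotrophin-induced granin cut into several signalling peptides, had 4.26, 3.44, 1.40 and 1.40 CPM in cKO libraries, against 1.47, 1.10, 0.682 and 0.568 CPM in controls. Batches 1 and 3 were the highest in both groups, the groups overlapped, and its change was 1.41 ± 0.16, a rise. Scg3, a granin that binds cholesterol-rich granule membrane and holds chromogranin A there, had 123, 120, 135 and 179 CPM in cKO libraries, against 91.8, 99.7, 126 and 175 CPM in controls. The groups overlapped, and the within-batch differences ran from 0.03 in batch 6 to 0.43 in batch 1. The change of Scg3 did not pass in edgeR, and it passed in DESeq2 and without replicate 6.

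**Figure D1:**
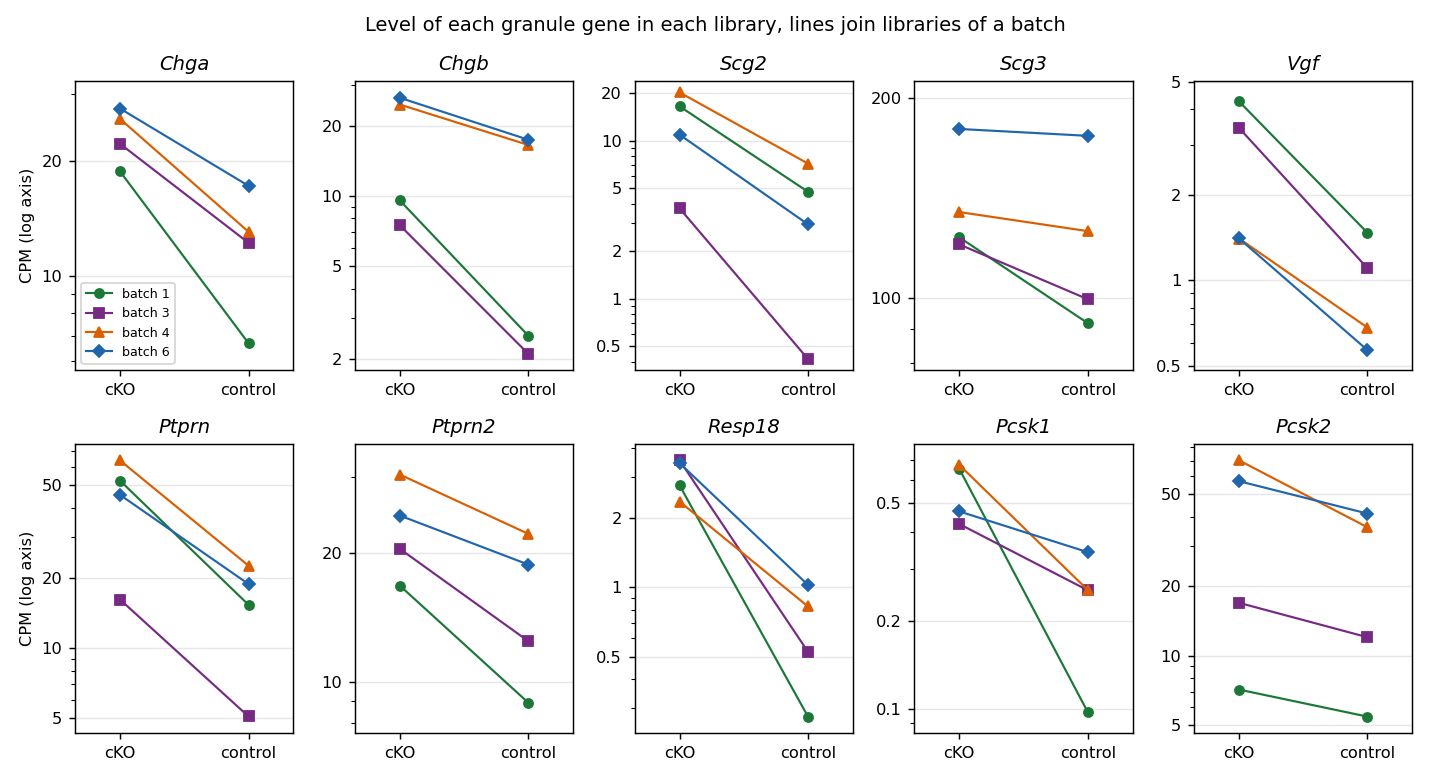
CPM on a log axis for each of the 10 genes, with cKO at the left and control at the right of each panel. Points are single libraries and lines join the libraries of a batch; every line runs higher at cKO, while the height of a line depends on the batch, with Vgf highest in batches 1 and 3 and Chgb and Pcsk2 highest in batches 4 and 6.

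The granule membrane is represented by Ptprn and Ptprn2, which encode IA-2 and phogrin, catalytically inactive receptor-type tyrosine phosphatases and autoantigens of type 1 diabetes. Ptprn had 52.2, 16.1, 63.7 and 45.3 CPM in cKO batches 1, 3, 4 and 6, against 15.3, 5.08, 22.5 and 18.8 CPM in controls. As for Scg2, batch 3 was lowest in both groups, and that cKO library lay below 2 of the controls. The difference within batches was even, from 1.27 to 1.77 on the log2 scale, and Ptprn rose by 1.54 ± 0.08, with the smallest SE among the genes that changed by over 1. Ptprn2 had 16.8, 20.4, 30.5 and 24.4 CPM in cKO libraries, against 8.94, 12.4, 22.2 and 18.8 CPM in controls. The groups overlapped, and Ptprn2 rose by 0.60 ± 0.08. The span of Ptprn2 holds 2 processed pseudogenes and overlaps 2 further genes on the opposite strand, and each of the 4 had under 100 counts over the 8 libraries.

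Resp18, which encodes an endocrine protein of the secretory pathway whose luminal part resembles that of IA-2, had 2.77, 3.55, 2.35 and 3.45 CPM in cKO libraries, against 0.274, 0.525, 0.825 and 1.02 CPM in controls. The groups did not overlap, and the cKO level was on average 4.64 times the control level in the fit. Controls of batches 1 and 3 were the lowest, and their within-batch differences were the largest, 3.17 and 2.68, against 1.47 and 1.72 in batches 4 and 6.

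Of the convertases, Pcsk1 (PC1/3) makes the first cuts in many prohormones, and Pcsk2 (PC2) continues them. Pcsk1 was near the limit of detection, with 5 to 37 counts per library. It had 0.652, 0.424, 0.672 and 0.468 CPM in cKO libraries, against 0.0980, 0.253, 0.254 and 0.341 CPM in controls, with no overlap. Only 3 of its 4 control libraries reached the count filter, so Pcsk1 passed that filter with the help of the cKO group. Its rise of 1.23 ± 0.36 was not called in 5 of the 9 alternatives that tested it, among them DESeq2 and the fits without replicate 1, 3 or 4. Pcsk2 had 7.14, 17.0, 70.2 and 57.0 CPM in cKO libraries, against 5.45, 12.03, 36.0 and 41.3 CPM in controls. The groups overlapped, the highest cKO library stood 9.84 times above the lowest, and Pcsk2 rose by 0.61 ± 0.10. The antisense gene Pcsk2os1 overlaps the start of Pcsk2 and rose by 0.80 ± 0.17 (adjusted p 0.00980 in edgeR). The sources used here do not say whether strand was used in counting, so reads of the pair cannot be told apart where they overlap.

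**Figure D2:**
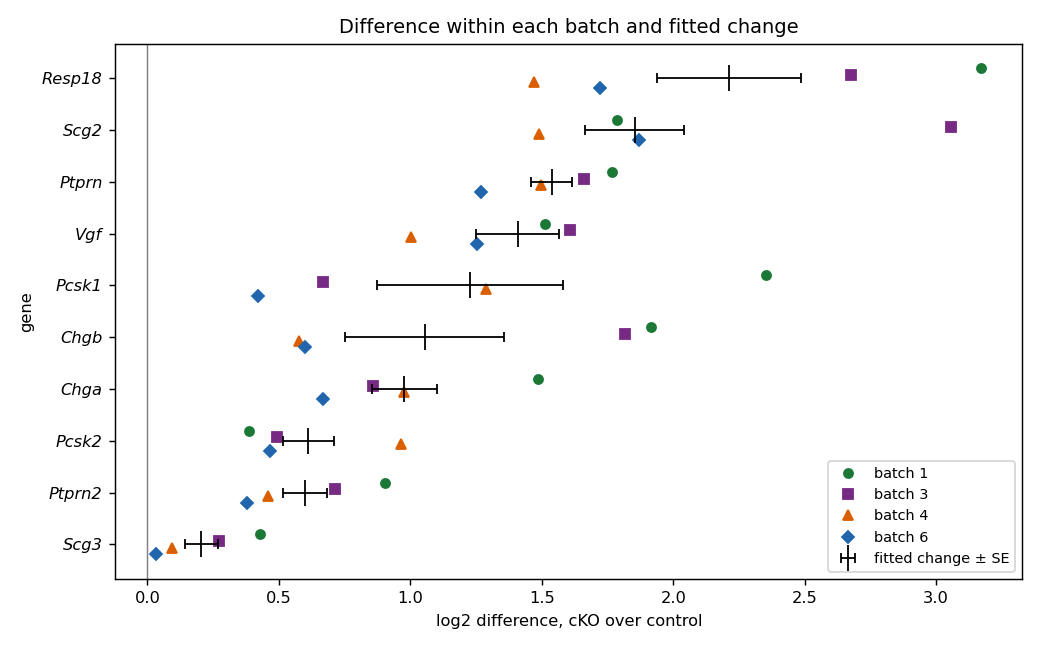
Log2 difference of cKO over control within each batch (coloured symbols) and the fitted change ± SE (black) for each gene, ordered by the fitted change. Symbols lie to the right of 0 for each gene and batch; the batches are close together for Ptprn and spread from 0.42 to 2.35 for Pcsk1.

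Non-overlapping groups were seen in 3 of the 10 genes, Chga, Resp18 and Pcsk1, and in 2.40% of all genes tested. Of these 3, Pcsk1 had passed the count filter with the help of the cKO group. The 10 genes differed in which batches were high. In both groups, 5 genes (Chga, Chgb, Scg3, Ptprn2 and Pcsk2) were higher in batches 4 and 6 than in 1 and 3, a pattern chosen after the values were seen and shared by 22% of all genes. Vgf showed the reverse, as did 21.5% of all genes. In 6 genes (Chgb, Scg3, Vgf, Ptprn, Ptprn2 and Resp18) both differences of batches 1 and 3 exceeded both of batches 4 and 6. Of the 3524 genes higher in cKO in 4 of 4 batches, 21.8% had that pattern, which was also chosen after the values were seen. The median gene spanned 0.57 log2 units over the cKO batches and 0.61 over the control batches, whereas Pcsk2 spanned 3.29 and 2.91 and Scg2 2.42 and 3.99.

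Levels can be set side by side between genes after division by exonic length (GENCODE M21, all exons of the gene merged). Scg3 stood highest, at 50.9 ± 9.98 CPM per kb in cKO and 45.0 ± 13.8 in control libraries (SD, n = 4). In cKO libraries it was followed by Ptprn at 10.4 ± 4.77, Chga at 8.54 ± 1.40, Chgb at 6.22 ± 3.61, Scg2 at 5.09 ± 2.84 and Pcsk2 at 4.78 ± 3.86 CPM per kb. These 5 overlapped in their ranges over libraries. Resp18 at 2.94 ± 0.55 and Ptprn2 at 2.68 ± 0.68 came next by mean and overlapped with each other and with Chgb, Scg2 and Pcsk2. Vgf, at 0.884 ± 0.489 CPM per kb, overlapped with Pcsk2, and Pcsk1, at 0.0989 ± 0.0225, overlapped with no other gene of the 10. In control libraries the order after Scg3 began with Chga at 4.46 ± 1.57, Ptprn at 3.63 ± 1.77 and Chgb at 3.52 ± 3.10 CPM per kb. Pcsk2 at 2.995 ± 2.23, Ptprn2 at 1.81 ± 0.70 and Scg2 at 1.52 ± 1.13 followed in control libraries, and their ranges overlapped with those of Chga, Ptprn and Chgb. Resp18 at 0.641 ± 0.319, Vgf at 0.322 ± 0.139 and Pcsk1 at 0.0422 ± 0.0180 CPM per kb had the lowest means in control libraries. There the ranges of Resp18 and Vgf overlapped with each other and with Scg2, that of Resp18 also with Chgb and Pcsk2, and that of Pcsk1 with none of the others.

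Ptprn (chr1:75247027-75264502, mm10, minus strand, protein-coding) and Resp18 (chr1:75272199-75278415, minus strand, protein-coding) are adjacent, 7697 bases apart on the same strand. Within 100 kb of either, 13 other genes had a row and 11 were tested. None of the 11 was called in edgeR, while 2 had an unadjusted p under 0.05, both lower, and 0 passed in DESeq2 and 1, lower, in limma-voom, as with RLE size factors and without replicate 6. Their changes ran from -0.22 ± 0.17 for Tuba4a, a tubulin gene, to 0.08 ± 0.08 for Dnajb2, a chaperone gene that ends 1335 bases from Ptprn. Abcb6, a transporter gene, was at -0.17 ± 0.05 (adjusted p 0.0502 in edgeR), and Ankzf1 at -0.18 ± 0.07. The other 7, Atg9a, Dnpep, Glb1l, Retreg2, Speg, Stk16 and Zfand2b, lay between those limits. The expression of Dnpep, on the far side of Resp18, was 40.3 ± 5.54 CPM in cKO and 40.9 ± 7.02 CPM in control libraries (SD, n = 4). Around the 10 genes as a whole, 37 neighbours within 100 kb were tested, of which 2 rose and 3 fell, with a median change of 0.01.

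**Figure D3:**
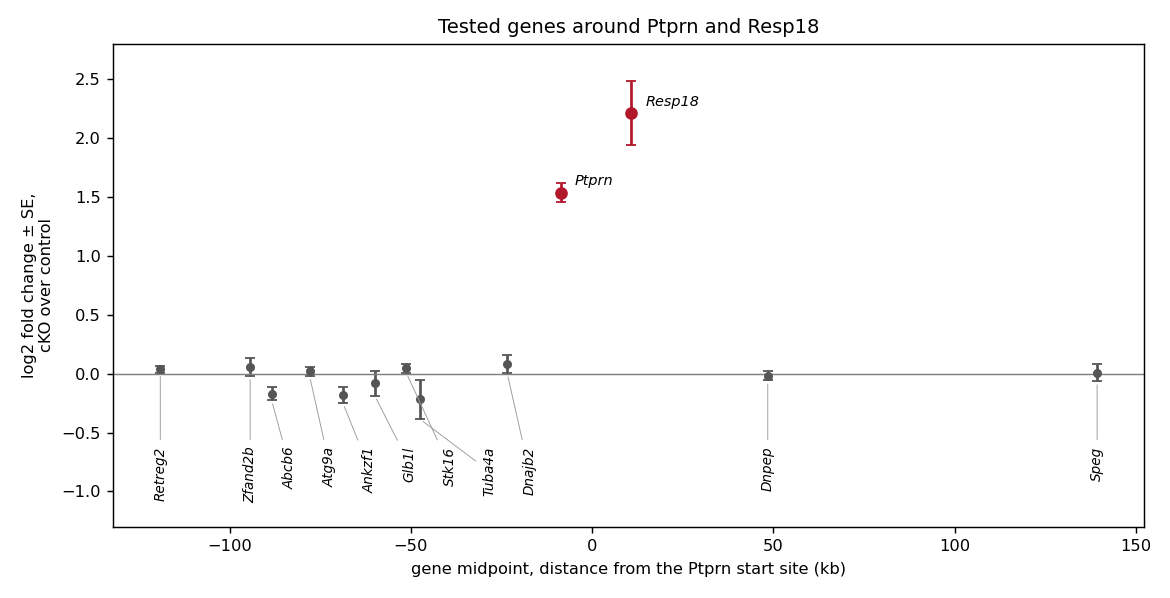
Fitted log2 fold change ± SE of cKO over control for the tested genes around Ptprn and Resp18, by the distance of the gene's midpoint from the Ptprn start site in kb. Ptprn and Resp18 (red) are at 1.54 and 2.21, and the 11 other genes (grey) lie between -0.22 and 0.08.

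Of 17 enzymes and chaperones of propeptide processing, 2 rose, 2 fell and 13 did not pass, and 1 fell without replicate 1, 3 or 6. Scg5, whose product 7B2 is the chaperone of PC2, rose by 0.48 ± 0.08, with 17.2, 19.2, 40.7 and 40.1 CPM in cKO libraries, against 10.1, 12.4, 33.8 and 32.0 CPM in controls. Qpct, which forms the pyroglutamate end of some peptides, rose by 0.35 ± 0.05, while the carboxypeptidase gene Cpm (-0.63 ± 0.13) and the aminopeptidase gene Rnpep (-0.19 ± 0.05) fell. Pam, the peptide-amidating enzyme, was at -0.10 ± 0.04, and Pcsk1n, which encodes an inhibitor of PC1/3, at 0.14 ± 0.05, both without passing.

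Of 37 tested genes of granule formation and release, 9 rose and 28 did not pass. None fell, with 2 lower at an unadjusted p under 0.05 in edgeR and 0 in DESeq2 and limma-voom. Sytl5, a synaptotagmin-like Rab effector, rose by 1.73 ± 0.19 and had 2.44 ± 1.22 CPM in cKO and 0.735 ± 0.420 CPM in control libraries (SD, n = 4). The granule Rab gene Rab27a rose by 1.29 ± 0.26. Its level rests on few counts, at 0.686 ± 0.368 CPM in cKO and 0.281 ± 0.176 CPM in control libraries (SD, n = 4). The controls of batches 4 and 6, at 0.174 and 0.133 CPM, lay under the count filter's limit of 0.183 CPM. Rab27a therefore passed that filter with the help of the cKO group, as Pcsk1 did. Rab3b rose by 0.73 ± 0.09, and Cadps, which primes granules for fusion, by 0.27 ± 0.04. Syt4, a granule synaptotagmin named after its values were seen, was at 1.82 ± 0.44 and did not pass (adjusted p 0.0596 in edgeR). Its within-batch differences ran from 0.81 in batch 1 to 2.999 in batch 4. The 9 rises became 5 without replicate 3 and 6 without replicate 1. Of this list 24.3% was called, against 20.5% of all genes in either direction. The list median was 0.12.

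Of 16 tested genes of granule membrane and content outside the group, 7 rose in edgeR and 0 fell in edgeR, DESeq2 or limma-voom, or at an unadjusted p under 0.05 in edgeR. Several of them also serve synaptic vesicles, such as Svop (0.64 ± 0.07) and Sv2a (0.51 ± 0.06), transporter-like vesicle proteins, and Pclo (0.34 ± 0.03), a scaffold of the active zone. Sv2c rose by 0.38 ± 0.07. Another of the 7, Vwf (0.35 ± 0.10), is also in the endothelial, pericyte and meningeal list, so its rise is counted in both lists. That list had 43.8% of its tested genes called and a median change of 0.31.

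Apart from the granins, most precursor genes of the peptides that such granules carry had low RNA levels. Peptides were not measured, and 27 of the precursor genes listed had no row in the count table. Of 55 neuropeptide and hormone precursor genes, 11 were tested and 0 passed in edgeR, DESeq2 or limma-voom (2 were higher at an unadjusted p under 0.05 in edgeR, and 1 passed without replicate 1 or replicate 6). Bdnf, a granule-borne neurotrophin, was at 2.78 ± 0.50 CPM in cKO and 2.11 ± 0.69 CPM in control libraries (SD, n = 4; adjusted p 0.0633 in edgeR). Rln1 was at 0.72 ± 0.27, Calca at 0.49 ± 0.34 and Pomc at 0.25 ± 0.21, none past the threshold. Only 2 of the 11 averaged at least 1 CPM in controls.

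Of 13 genes of REST and its corepressors, the targeted genes Ehmt1 and Ehmt2 and 4 others fell and 0 rose by any of the 3 tools or at an unadjusted p under 0.05 in edgeR. Rest itself was at 43.3 ± 4.83 CPM in cKO and 45.0 ± 2.65 CPM in control libraries (SD, n = 4; change -0.06 ± 0.04, adjusted p 0.364 in edgeR). Rcor2, a corepressor of the CoREST family, fell by 0.27 on the log2 scale and Cdyl, a chromodomain protein that joins REST and EHMT2, by 0.37. Of 25 genes of the CREB family and its activity-induced targets, 3 rose and 4 fell, and 1 fell without replicate 3 or without replicate 4. Arc, an activity-induced gene of neurons, rose by 1.12 ± 0.11. Npas4, another, rose by 2.01 ± 0.32, with means of 0.654 CPM in cKO and 0.161 CPM in control libraries. That control mean lies under the count filter's limit of 0.183 CPM, so Npas4 passed the filter with the help of the cKO group. Crtc3, a CREB coactivator, fell (-0.23 ± 0.05), as did Dusp1 (-0.34 ± 0.06), and Creb1 was at 0.00 ± 0.04. Of 11 transcription factors of neuroendocrine cells, 3 rose and 1 fell, and 2 fell without replicate 3 or without replicate 6. St18 (1.57 ± 0.23), Myt1l (0.56 ± 0.10) and Myt1 (0.41 ± 0.07), which form 1 zinc finger family, rose, and Pax6 fell (-0.41 ± 0.06). The control of batch 3 had 0 CPM of St18, so St18 also passed the filter with the help of the cKO group. Insm1, a factor that marks neuroendocrine cells, was at -0.20 ± 0.09 and did not pass.

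**Figure D4:**
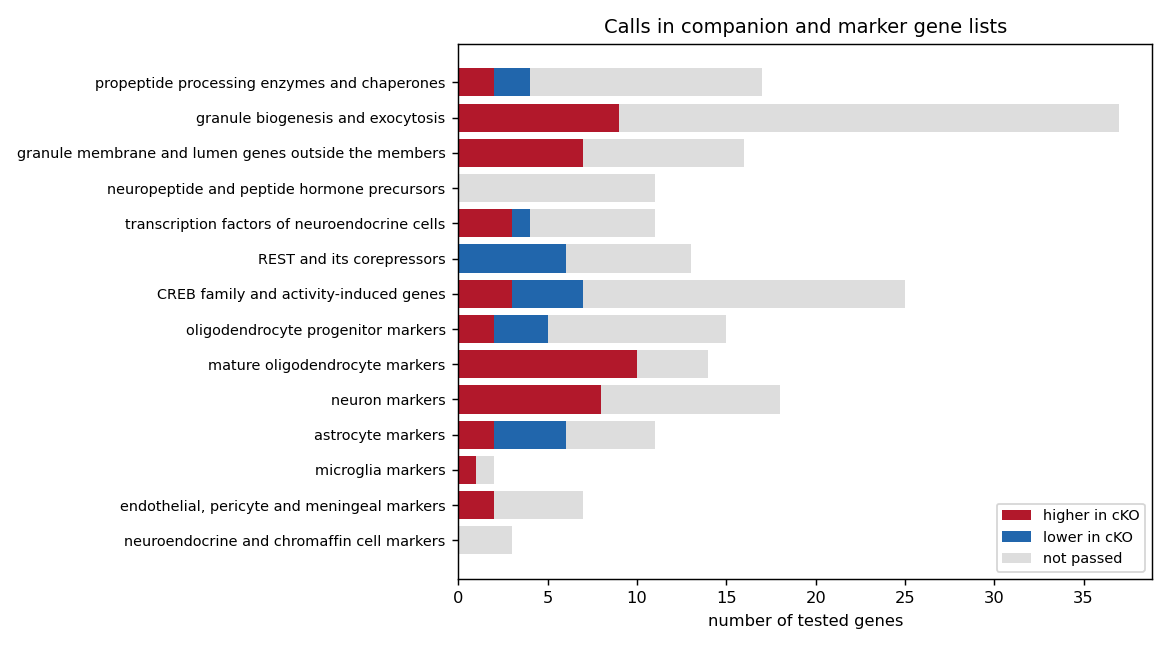
Number of tested genes in each list that were higher in cKO (red), lower in cKO (blue) or did not pass (grey) in edgeR with the batch block. Red without blue is seen for granule formation and release (9 of 37), granule membrane and content (7 of 16), mature oligodendrocyte markers (10 of 14), neuron markers (8 of 18), microglia markers (1 of 2) and endothelial, pericyte and meningeal markers (2 of 7). Vwf is counted in red both for granule membrane and content and for the endothelial list.

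The genes outside the group whose levels over the 8 libraries were most like the average of the 10 standardised genes were Rasl10b, Nudt14, Gm29521, Fhit and Lyplal1, with Pearson r between 0.97 and 0.98. The 8 libraries share 4 batches and 2 groups, and the r is given as a description only. Rasl10b, encoding a small GTPase, had 62.8 ± 5.01 CPM in cKO and 47.1 ± 8.83 CPM in control libraries (SD, n = 4) and rose by 0.43 ± 0.06. Fhit rose by 1.22 ± 0.15, Gm29521 by 0.58 ± 0.08, Nudt14 by 0.47 ± 0.12 and Lyplal1 by 0.41 ± 0.08.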

How the data were processed

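RNA-seq of 8 libraries was analysed. The submitters' processing notes name mm10 and the tools STAR, cutadapt, Partek and DESeq2. Versions, annotation and strand setting: not given in the sources used here. In the deposited table are expected counts per gene, estimated by the authors and not normalized, of which 52% are not whole, so genes that overlap or share sequence may exchange counts. Coordinates come from the table (end: last base) and match GENCODE M21 for all 10 genes.

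Counts were rounded. The filter was filterByExpr by group, minimum count 10 (18102 kept, 6053 removed). Libraries were scaled by TMM and tested with glmQLFit (robust) and glmQLFTest (edgeR 4.0.16, R 4.3.3), 2-sided, with group and batch number as a block and Benjamini-Hochberg adjustment over all genes tested. A prior count of 2 entered log2 CPM. Totals per library were 43542742 to 65374488, so genes under 1 CPM, such as Pcsk1, rest on few counts. The batch names in the labels pair the libraries: deviations from group means correlated at 0.75 to 0.79 for the same number and at most 0.39 otherwise. No 2 libraries of a group were duplicates (chi-square per degree of freedom 54.2 or more). The fit was tested on simulated data.

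Members and gene lists were chosen with earlier results of these data known. Other genes named are up to 4 per list with the smallest p, those within 100 kb of Ptprn or Resp18, and the 5 most alike; a few others, such as Syt4, Pam, Pcsk1n, Rest and Creb1, were named after their values were seen. Alternatives were no block, RLE factors, other filters, DESeq2 1.42.0, limma-voom (limma 3.58.1) and each batch left out. Sequences are RefSeq's for GRCm38.p6. A search for the REST site is not reported, because its consensus matched only 4 of 32851 promoters. Protein sequences were not analysed here.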

Additional observations from a re-analysis of the deposited data

How the results depend on the processing

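Under 99 alternative fits of single genes, each of the 10 kept its upward direction, with 83 on the same side of the threshold. Without the replicate block, which pairs the libraries of a batch, 1 gene of the whole table was higher and 2 were lower, against 1817 and 1889 with it. In that fit 0 of the 10 granule genes, 0 higher and 0 lower companion genes (24 and 11 with the block) and 0 neighbours (5 with it) passed, while the changes of the 10 ranged from 0.18 for Scg3 to 2.19 for Resp18. Leaving out 1 batch, granule genes called ranged from 7 to 9, genes of the whole table from 1127 to 1702 higher and from 910 to 1730 lower, companion genes from 19 to 27 higher and from 6 to 11 lower, and neighbours from 2 to 6. Neighbours called numbered 3 in DESeq2. Companion genes that fell numbered 6 without replicate 3 or replicate 4, and neighbours called 2 without replicate 3. Of the calls, Pcsk1 was lost in DESeq2 (adjusted p 0.0625) and without replicate 1 (0.123), 3 (0.0703) or 4 (0.127) in edgeR, and Chgb was gained with a filter of 1 CPM in 4 libraries (0.0482 in edgeR) and in DESeq2 (0.00774). The causes were not tested beyond the fewer libraries or genes in each fit. Of 280 counts of lists under alternatives, 41 moved by over 1.5 times, 17 of them without the block. Among 20 sets of 4 libraries, no granule gene had a library far enough from the other 3 to pass Dixon's criterion. Changes in genes under 1 CPM, such as Pcsk1, rest on few counts.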
